A study of Arabidopsis thaliana with 9 samples.

Results

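WRKY6, SAG101 and ATG8B are Arabidopsis genes of leaf senescence and autophagy, taken by symbol from the array platform's probe-to-gene table. They are 3 of 13356 genes that could be named on the arrays, and each had 1 probe set among the 22746 tested: 264746_at for WRKY6 (AT1G62300), 246600_at for SAG101 (AT5G14930) and 255283_at for ATG8B (AT4G04620). The series profiled RNA of above-ground tissue from greenhouse plants of the Col-0 background at 8 weeks of age, under equal day and night lengths. Its 3 groups of 3 arrays were transgenic plants with RNA interference (RNAi) against MSH1 and a stunted phenotype, transgenic msh1 RNAi plants with a variegated phenotype, and wild type. The sample titles name Col-0 for the variegated and wild-type plants and leave it out for the stunted ones. MSH1 is a nuclear gene whose MutS-type protein acts on the genomes of mitochondria and plastids. RNA came from single plants, the replicates are labelled as biological, and the labels do not say how many independent transformants stand behind each RNAi group.

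Leaf senescence is the last stage of leaf life, in which chloroplasts are dismantled and their nitrogen and minerals are exported. WRKY6 encodes a transcription factor of the WRKY family that is induced in senescing leaves and by pathogens and that represses the phosphate exporter gene PHO1. SAG101 was found as a senescence-associated gene, and its protein forms a complex with EDS1 in immune signalling by TIR-type receptors. Autophagy delivers cytoplasm and organelles to the vacuole. ATG8 proteins are ubiquitin-like, are attached to phosphatidylethanolamine on the growing autophagosome and recruit cargo receptors, and ATG8B is 1 of the 9 Arabidopsis isoforms.

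The values are the authors' log2 expression values, so a difference of 1 is a doubling on this scale. Changes were tested with limma over all 22746 probe sets, with Benjamini-Hochberg adjustment within each comparison, and an adjusted p under 0.05 passed. The 9 array medians lay between 3.37 and 3.43, and no array stood apart by its correlation with the others of its group (r across probe sets 0.9855 to 0.9946). How the background was corrected is not stated in these sources, and differences of dim probe sets may be compressed or stretched. MSH1 was not analysed here, so the suppression of the targeted gene is unchecked. The tissue could be checked against few markers. A listed gene counts as measured here only if the platform table names it alone for a probe set. Of 10 listed green leaf genes 2 were measured, with a mean log2 level of 9.92 to 10.3 on stunted, 10.4 to 10.5 on variegated and 10.3 to 10.6 on wild-type arrays. Of 8 listed flower and pollen genes 2 were measured, at 2.64 to 2.72, 2.72 to 2.80 and 2.58 to 2.72, and none of 7 listed seed genes was.

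WRKY6 rose in stunted plants and was the only one of the 3 genes to pass against wild type. Its log2 level was 4.60, 4.31 and 3.70 on the stunted arrays, 3.57, 3.38 and 3.71 on the variegated arrays, and 3.25, 2.97 and 3.29 on the wild-type arrays. All stunted arrays lay above all wild-type arrays, but stunted replicate 3 was level with the highest variegated array. The mean was 4.20 ± 0.46 in stunted, 3.55 ± 0.16 in variegated and 3.17 ± 0.17 in wild-type plants (SD, n = 3 each).

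The change of WRKY6 in stunted against wild-type plants was 1.03 on the log2 scale (SE 0.20, 2.05-fold, 95% interval 1.49- to 2.82-fold, limma adjusted p = 0.0138). In this comparison 9.66% of all probe sets passed, and 4.91% passed as rises. The arrays of both groups did not overlap for 23.1% of probe sets. All wild-type WRKY6 values were below the median of their array, at or above 34.9% to 46.7% of its probe sets. With so dim a baseline the fold may be compressed or stretched. Leaving out stunted replicate 2 or wild-type replicate 2 ended the call, with adjusted p of 0.0577 and 0.056, while the change stayed at 0.98 and 0.93. In whole above-ground tissue, more WRKY6 RNA per cell and more cells or leaves that express it cannot be told apart.

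Variegated plants had WRKY6 values between those of the other groups. All 3 variegated arrays were above all 3 wild-type arrays, by a gap of 0.09, which was true of 16.8% of probe sets. The change of 0.38 (SE 0.20, 95% interval -0.08 to 0.84) did not pass (adjusted p = 0.526), in a comparison where 0.444% of probe sets did. Stunted against variegated plants differed by 0.65 (SE 0.20, 95% interval 0.19 to 1.11), which did not pass either (adjusted p = 0.155, with 1.74% of probe sets passing). These shares depend on single arrays. Over the 9 fits without 1 array, 1241 to 2955 probe sets passed in stunted against wild-type plants (2197 with all arrays), 10 to 206 in variegated against wild-type plants (101) and 48 to 1404 in stunted against variegated plants (396). The highest count in each comparison was that without stunted replicate 1. The lowest was that without stunted replicate 2 in the first of these comparisons and without variegated replicate 1 in the others. Without stunted replicate 3 the WRKY6 difference of stunted from variegated plants was 0.90 and passed (adjusted p = 0.0347). The order of the levels was therefore stunted, variegated and wild type, with no neighbours in it separated by a change that passed.

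The spread of WRKY6 within groups was large, with a residual SD of 0.30 that exceeded those of 94.0% of probe sets. Most of it came from the stunted arrays. Stunted replicate 3, the lowest of them, also had the highest difference between the 3' and 5' actin control probe sets, at 1.95. This difference rises when RNA is degraded. The other stunted arrays had 1.42 and 1.59, the variegated arrays 0.95 to 1.45 and the wild-type arrays 1.11 to 1.56. Between arrays of the same replicate number, stunted minus wild type was 0.30, 0.48 and 0.39 (exact permutation p between the groups 0.2, where 0.1 is the smallest possible). A second, older actin control was also highest on stunted replicate 3, at 4.04. Its stunted minus wild-type differences were 0.19, 0.22 and 0.20 (exact permutation p = 0.4). The same difference for GAPDH did not follow the actin ones. It was 0.42 on stunted replicate 3, averaged 0.49 on stunted, 0.46 on variegated and 0.63 on wild-type arrays, and was highest on wild-type replicate 1, at 0.86. The 25S ribosomal RNA control averaged 7.36 ± 2.48 on stunted, 6.04 ± 2.28 on variegated and 4.96 ± 1.28 on wild-type arrays (SD, n = 3). With the first actin difference as a covariate the change of WRKY6 in stunted against wild-type plants was 1.16 (adjusted p = 0.0326). With the 25S signal it also passed (adjusted p = 0.029). The part of RNA quality in the WRKY6 values was otherwise not tested.

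SAG101 did not pass in any comparison, and its probe set was dim. The log2 level was 2.88, 2.78 and 2.88 on the stunted arrays, 2.88, 2.92 and 2.88 on the variegated arrays, and 2.67, 2.97 and 2.97 on the wild-type arrays. The groups overlapped, and the widest spread was that of wild type, where replicate 1 lay below the others. All 9 values were below the median of their array. They ranked at or above 13.5% to 36.0% of the probe sets of the same array, and the files give no detection call.

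The SAG101 change was -0.02 in stunted against wild-type plants (SE 0.09, adjusted p = 0.923), 0.02 in variegated against wild-type plants (adjusted p = 0.963) and -0.04 in stunted against variegated plants (adjusted p = 0.891). The 95% intervals were 0.86- to 1.13-fold, 0.88- to 1.16-fold and 0.84- to 1.12-fold. These intervals hold on the deposited scale, and a probe set near the floor may show less than the true change. Only 7 of the 9 SAG101 values were distinct. Repeated values across arrays occurred in 52.4% of all probe sets and in 68.5% of the dimmest 30%.

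ATG8B separated the RNAi phenotypes from each other. Its log2 level was 4.98, 4.97 and 5.20 on the stunted arrays, 4.54, 4.65 and 4.65 on the variegated arrays, and 4.87, 4.90 and 4.94 on the wild-type arrays. No 2 groups overlapped, with stunted highest and variegated lowest. Full separation of the 3 groups, in any order, was found for 3.35% of probe sets. The mean was 5.05 ± 0.13 in stunted, 4.61 ± 0.06 in variegated and 4.90 ± 0.04 in wild-type plants (SD, n = 3 each).

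ATG8B was higher in stunted than in variegated plants by 0.44 (SE 0.08, 95% interval 0.26 to 0.61, 1.35-fold, limma adjusted p = 0.0315). Rises in this comparison made up 0.87% of probe sets. Against wild type neither phenotype passed. The change was 0.15 in stunted plants (SE 0.08, 95% interval -0.03 to 0.32, adjusted p = 0.33) and -0.29 in variegated plants (SE 0.08, 95% interval -0.47 to -0.11, adjusted p = 0.169). The change in stunted plants was 0.07 without stunted replicate 3 and 0.05 with the actin difference as a covariate, and neither passed.

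The ATG8B call was close to the threshold. Of 9 fits that each left out 1 array, 7 ended it. These were the fits without stunted replicate 2 or 3, any 1 variegated array, or wild-type replicate 2 or 3, with adjusted p of 0.0509 to 0.133 and changes of 0.36 to 0.48. With the actin difference as a covariate the ATG8B change was 0.31 (adjusted p = 0.245). The actin difference averaged 1.65 ± 0.27 on stunted and 1.15 ± 0.27 on variegated arrays (SD, n = 3, two-sided exact permutation p = 0.2, where 0.1 is the smallest possible). Between arrays of the same replicate number, stunted minus variegated was 0.47, 0.55 and 0.50, all of 1 sign, and replicate 3 was the highest array of each group. Stunted replicate 3 had both the highest ATG8B level and the highest actin difference.

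**Figure D1:**
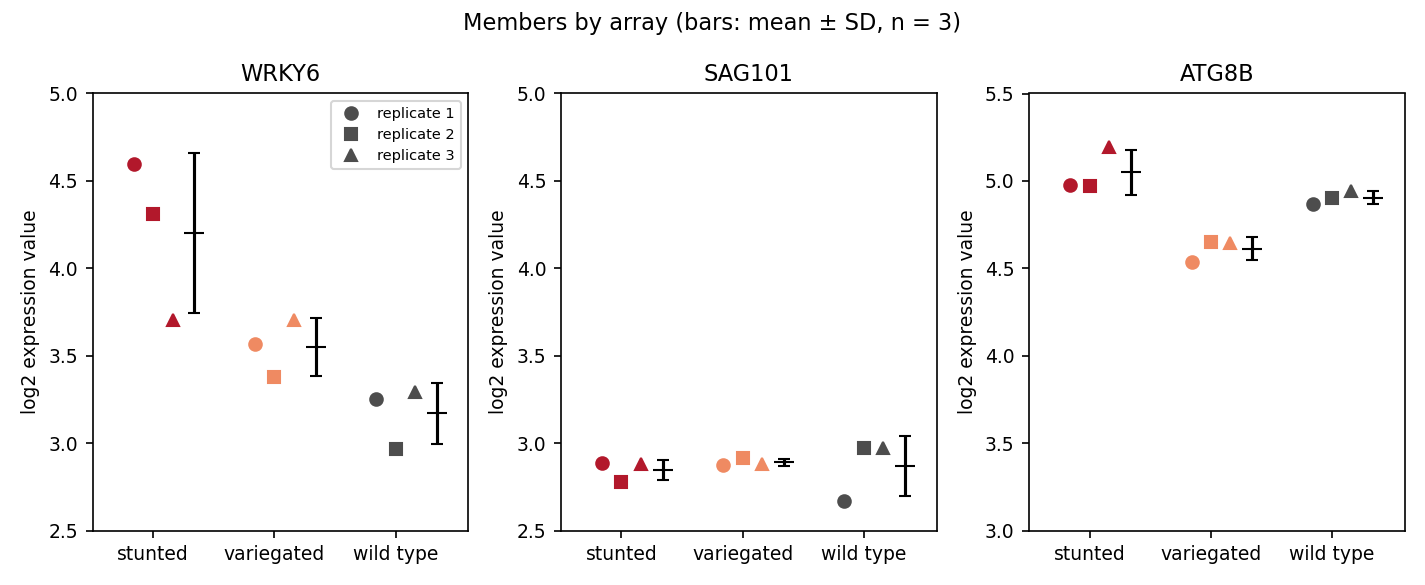
Log2 expression value (vertical axes) of WRKY6, SAG101 and ATG8B on each of 9 arrays. Each replicate has 1 marker, and bars show the mean ± SD of 3 arrays. The axes span equal widths, but that of ATG8B starts at a higher value. WRKY6 has its highest mean in stunted plants, but its lowest stunted array is level with the highest variegated array. SAG101 lies between 2.67 and 2.97 throughout, and the variegated arrays are lowest for ATG8B.

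**Figure D2:**
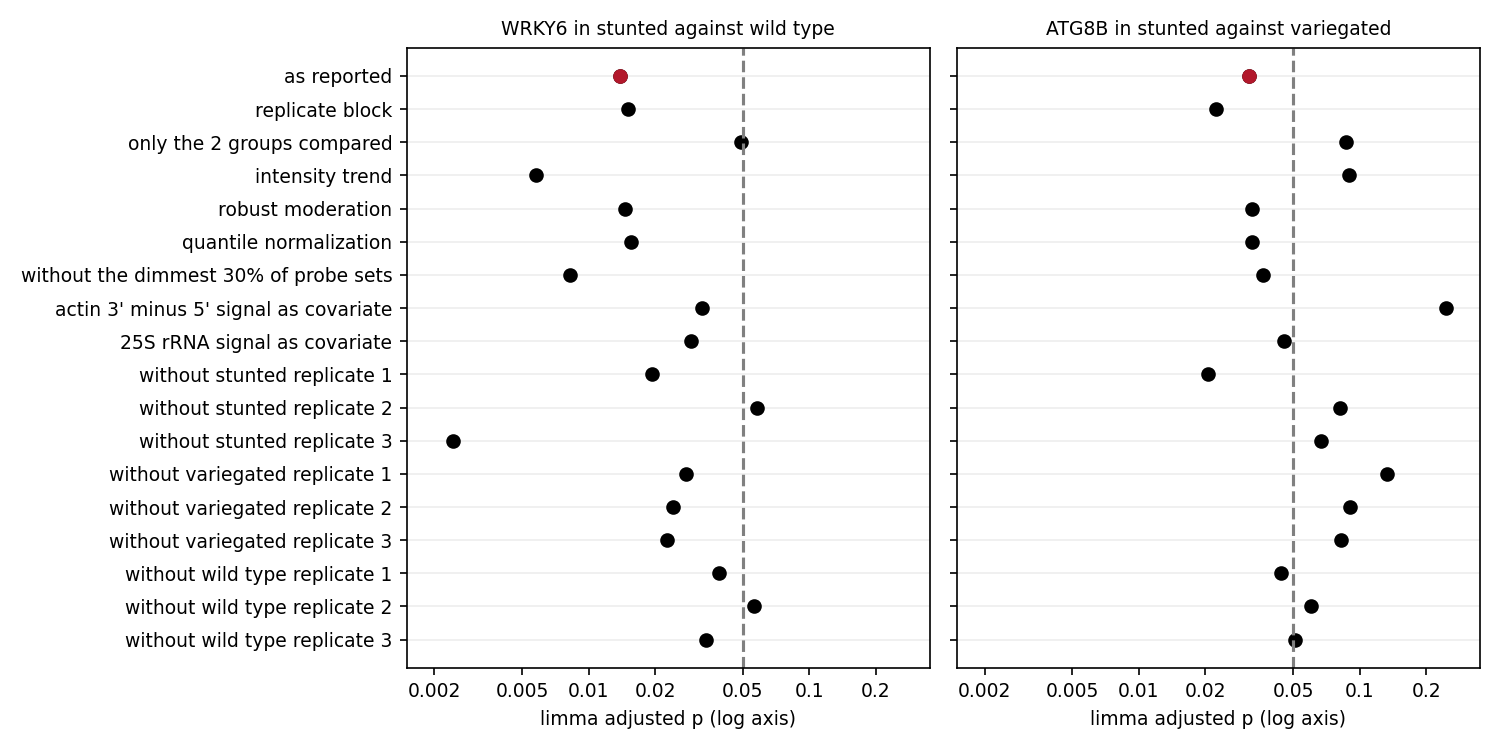
Adjusted p from limma (horizontal log axis) for WRKY6 in stunted against wild-type plants and ATG8B in stunted against variegated plants, as reported (red) and under each alternative (black), with a dashed line at 0.05. WRKY6 lies below the line in all but 2 alternatives, and ATG8B lies above it in 10 of 17.

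All 9 ATG8 isoforms were measured, which sets ATG8B beside its family. In stunted against wild-type plants 1 of the 9 rose and none fell, where 4.91% of all probe sets rose and 4.75% fell, with 4 changes above 0 and a median of -0.14, against 0.01 over all probe sets. In variegated against wild-type plants none passed, where 0.444% of all probe sets did, with 3 of 9 above 0 and a median of -0.17, against 0.01 over all probe sets. In stunted against variegated plants ATG8B and ATG8H rose and none fell, where 0.87% of all probe sets rose, and the median was 0.00, against -0.01 over all probe sets.

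ATG8H was the isoform that rose in stunted plants. It belongs with ATG8I to a clade whose proteins end at the glycine that is joined to lipid and so need no trimming by ATG4 proteases. Its log2 level was 4.69, 4.67 and 4.74 on stunted arrays, 4.0, 4.13 and 4.10 on variegated arrays, and 4.13, 3.91 and 3.94 on wild-type arrays. The stunted arrays stood clear of all others, and the variegated and wild-type arrays overlapped. The rise of ATG8H was 0.71 against wild type (SE 0.08, limma adjusted p = 0.00113) and 0.62 against variegated plants (SE 0.08, adjusted p = 0.00879). In variegated against wild-type plants the change was 0.09 (SE 0.08, adjusted p = 0.743). Its call against wild type held in all 17 alternatives, and that against variegated plants was lost with the actin covariate (adjusted p = 0.0713) and without variegated replicate 1 (0.0528).

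The other isoforms were ATG8A, ATG8C, ATG8D, ATG8E, ATG8F, ATG8G and ATG8I, and none of them passed in any comparison as fitted. In stunted against wild-type plants ATG8E, with a change of 0.45 (adjusted p = 0.293), passed with the replicate block (adjusted p = 0.0298). ATG8I, with a change of -0.19 (adjusted p = 0.427), passed as a fall of 0.41 with the actin covariate (adjusted p = 0.026). ATG8I is listed as APG8H on the platform, a name that does not stand for ATG8H. The 9 isoforms had changes of -0.44 to 0.71 in stunted and -0.29 to 0.37 in variegated against wild-type plants. ATG8B held the lowest of these in variegated plants, by a change that did not pass.

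**Figure D3:**
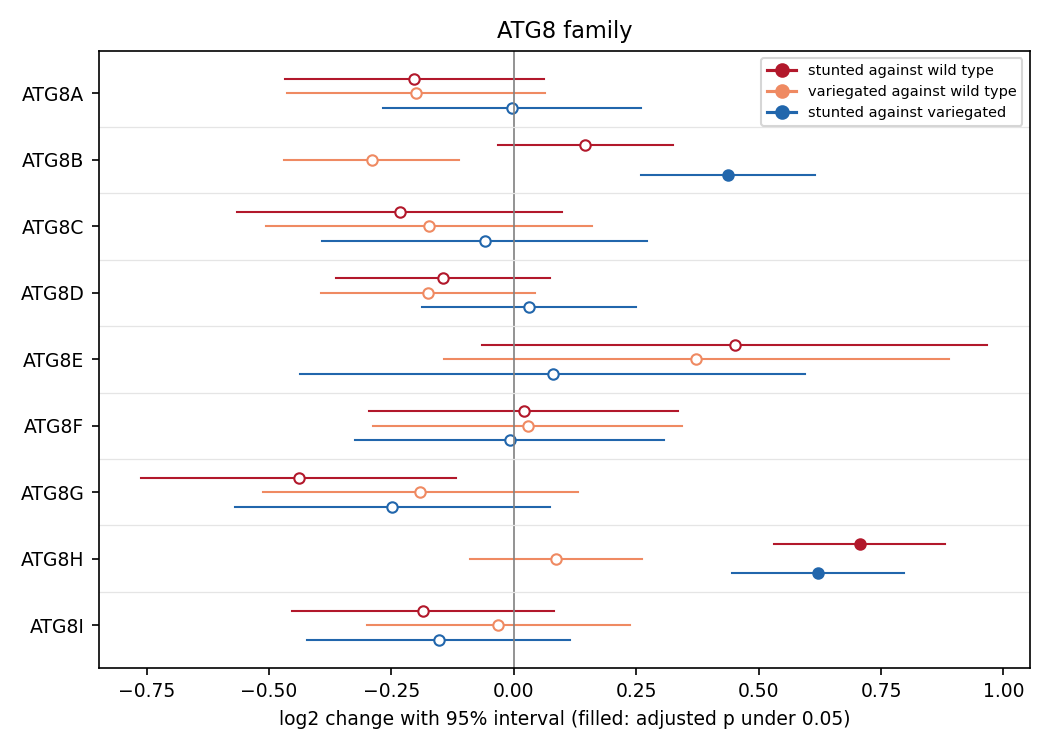
Log2 change (horizontal axis) with its 95% interval for the 9 ATG8 genes in 3 comparisons, with filled points for an adjusted p under 0.05. ATG8H passes in both comparisons of stunted plants and ATG8B in stunted against variegated plants, while the other 7 genes have open points throughout.

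Genes of the autophagy machinery outside the ATG8 family were measured for 9 of 36 listed. In stunted against wild-type plants 1 rose, none fell and 8 did not pass (median 0.06). None of the 9 passed in variegated against wild-type or stunted against variegated plants, where 0.444% and 1.74% of all probe sets did. Their medians there were -0.04 and 0.08. Among those not passing were ATG3, the enzyme that joins ATG8 to lipid, with 6.37 in stunted and 6.48 in wild-type plants, and ATG101, a subunit of the initiating kinase complex, with 3.66 and 3.59. Over all 18 measured autophagy genes, 2 rose and none fell in stunted against wild-type plants, a share near the 9.66% of all probe sets that passed there.

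The autophagy-related gene that rose was RAPTOR1, a subunit of the TOR kinase complex, which restrains autophagy when nutrients are ample. RAPTOR1 had 3.91, 3.78 and 4.0 on stunted arrays, 3.64, 3.66 and 3.66 on variegated arrays, and 3.42, 3.66 and 3.20 on wild-type arrays. The stunted arrays were above all others, and 3 of the other arrays shared 1 value. The rise against wild type was 0.47 (SE 0.11, limma adjusted p = 0.0295). It was lost in 7 of the 9 fits that left out 1 array (adjusted p up to 0.0933), in the fit of both groups alone and with the actin covariate.

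Of 24 listed senescence transcription factors 4 were measured, and in stunted against wild-type plants 2 rose, 1 fell and 1 did not pass, where 4.91% of all probe sets rose and 4.75% fell. Besides WRKY6, the riser was WRKY22, which acts in dark-induced senescence and in the response to bacterial flagellin. Its log2 level was 3.66, 3.80 and 3.72 on stunted arrays, 3.35, 3.33 and 3.18 on variegated arrays, and 2.98, 3.09 and 3.22 on wild-type arrays. WRKY22 thus had the order of group means seen for WRKY6, with much tighter stunted arrays. The rise of WRKY22 was 0.63 against wild type (SE 0.08, limma adjusted p = 0.00257) and held in all 17 alternatives. Its wild-type values were dim, all below the lowest array median of 3.37, so the size of the rise is uncertain.

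WRKY22 was also higher in stunted than in variegated plants, by 0.44 (SE 0.08, adjusted p = 0.0394). This call was lost in 6 of the 9 fits that left out 1 array (adjusted p up to 0.141), with either covariate and in the fit of both groups alone. EIN3, the transcription factor of ethylene signalling that promotes senescence, fell by 0.46 in stunted against wild-type plants (SE 0.08, adjusted p = 0.00866). This call was lost with the actin covariate (-0.38, adjusted p = 0.0542) and held in the other 7 alternatives and in all 9 fits without 1 array. The variegated arrays of EIN3, at 7.53 to 7.70, were also all below the wild-type arrays, at 7.90 to 8.03, with a change of -0.36 that did not pass (SE 0.08, adjusted p = 0.107). WRKY53, a regulator of early senescence, had 2.99 in stunted, 2.95 in variegated and 2.98 in wild-type plants and passed in none of the 3 comparisons. In variegated against wild-type plants none of the 4 factors passed, where 0.444% of all probe sets did.

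The WRKY family as named by the platform comprised 6 genes. In stunted against wild-type plants WRKY6 and WRKY22 rose, and WRKY20, WRKY42, WRKY47 and WRKY53 did not pass (family median 0.14), where 9.66% of all probe sets passed and 4.91% rose. In variegated against wild-type plants none of the 6 passed, where 0.444% of all probe sets did, and the median was 0.18. WRKY42 and WRKY47 belong to the same subgroup as WRKY6, and WRKY42 also represses PHO1. The log2 level of WRKY42 was 2.66 in stunted, 2.70 in variegated and 2.68 in wild-type plants. WRKY47 had 3.40, 3.48 and 3.31 in the same order, and their changes against wild type lay between -0.03 and 0.17.

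Few senescence-associated genes could be set beside SAG101. Of all probe sets, 9.66% passed in stunted against wild-type, 0.444% in variegated against wild-type and 1.74% in stunted against variegated plants. With 1 or 2 genes measured in a list, none passing therefore says little about that list. Of 22 listed senescence-associated and dark-induced genes only SAG101 and SAG29 were measured, and neither passed. SAG29, a sugar transporter gene of the SWEET family, had 4.97, 4.29 and 4.15 on stunted arrays, 4.87, 5.20 and 5.56 on variegated arrays, and 4.97, 5.19 and 6.58 on wild-type arrays. Its change in stunted against wild-type plants was -1.11 (SE 0.40, 95% interval -2.01 to -0.21, limma adjusted p = 0.127), in the direction opposite to that of WRKY6. Of 10 genes of chlorophyll breakdown only NOL, a chlorophyll b reductase, was measured, with a change of 0.31 in stunted against wild-type plants (SE 0.11, adjusted p = 0.111) that was 0.42 and passed without wild-type replicate 3 (adjusted p = 0.0303). Of 18 genes of the EDS1 module and salicylate defence only SAG101 and AT3G48080 were measured. AT3G48080 had a change of -0.11 in stunted and -0.08 in variegated against wild-type plants (SE 0.09 each, adjusted p = 0.564 and 0.819). None of the 15 listed genes of nutrient remobilisation, PHO1 among them, could be named on the arrays by a single symbol.

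**Figure D4:**
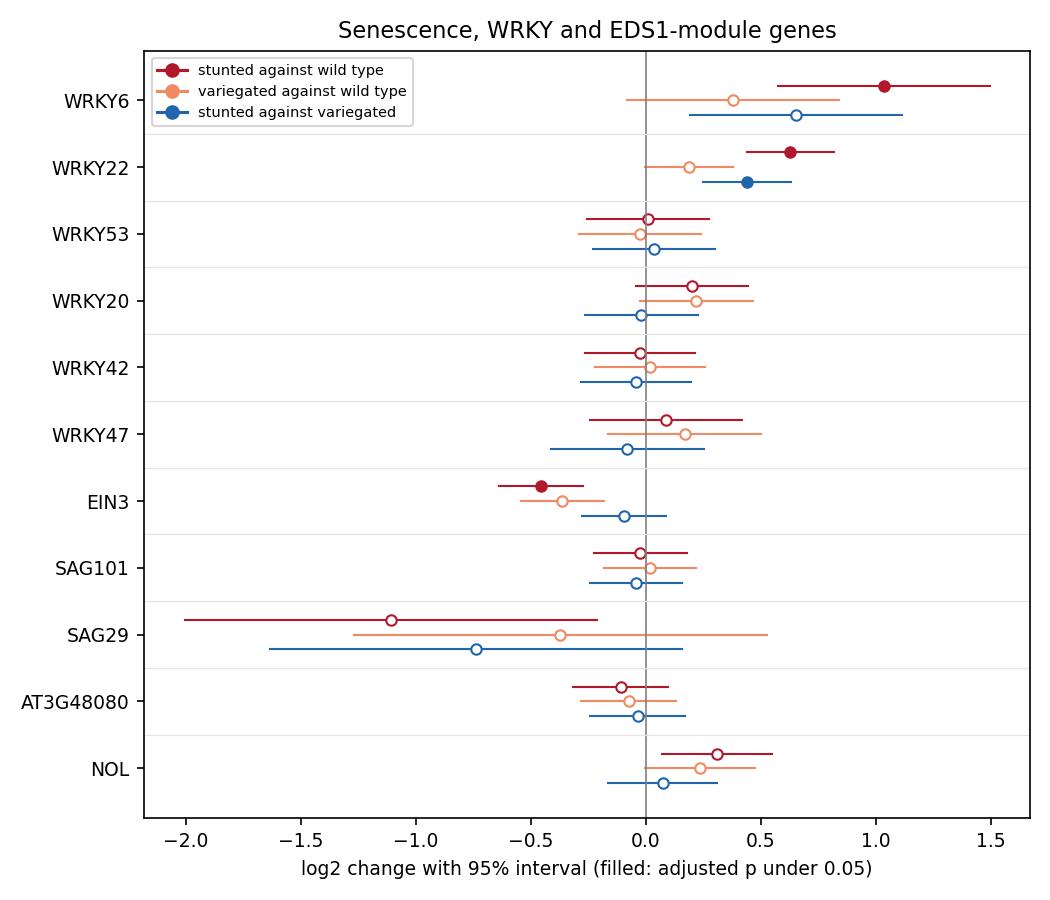
Log2 change (horizontal axis) with its 95% interval for WRKY, senescence and EDS1-module genes in 3 comparisons, with filled points for an adjusted p under 0.05. WRKY6 and WRKY22 lie to the right in stunted against wild-type plants and EIN3 to the left, while SAG101 and AT3G48080 lie close to 0 in every comparison.

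Some of the measured marker genes passed in stunted against wild-type plants, where 9.66% of all probe sets did. LHCB4.3, a light-harvesting protein gene and 1 of the 2 measured green leaf genes, had 7.36 ± 0.35 in stunted and 8.24 ± 0.19 in wild-type plants (SD, n = 3) and fell by 0.88 (SE 0.17, limma adjusted p = 0.0126). The other, the Rubisco activase gene RCA, had 12.9 in stunted and 12.7 in wild-type plants. Its change of 0.24 did not pass (adjusted p = 0.138). Neither measured flower and pollen gene passed. PYK10, a beta-glucosidase gene abundant in roots and the 1 measured of 8 listed root genes, had 5.51 to 5.98 on stunted, 3.78 to 4.09 on variegated and 4.01 to 4.45 on wild-type arrays. It rose by 1.50 against wild type (SE 0.15, adjusted p = 0.000875). Whether these single-gene changes reflect a difference in tissue was not tested. Their part in the results for WRKY6, WRKY22, ATG8B and ATG8H was not tested either.

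The genes whose levels followed each member most closely over the 9 arrays were sought among 13353 others, as a description without a test. For WRKY6 they were TET8, a tetraspanin gene (Pearson r = 0.966), AT1G19140 (0.946), AT3G47540 (0.941), AT4G33420 (0.939) and the metallothionein gene MT1C (0.938). All 5 had the order of group means of WRKY6, and TET8 averaged 8.41 in stunted, 7.73 in variegated and 7.14 in wild-type plants. Their changes were 0.43 to 1.27 in stunted and 0.15 to 0.59 in variegated against wild-type plants, and no test is given for genes chosen by this pattern.

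For ATG8B the closest were AT2G10840 (r = 0.988), AT3G49160 (0.964), AT2G29320 (0.962), ZW9 (0.957) and AT1G19980 (0.943). All 5 were lowest in variegated plants, as ATG8B was. They were chosen for this likeness, so it adds no support to the ATG8B pattern, and no test is given. ZW9 had 7.75 in stunted, 7.07 in variegated and 7.43 in wild-type plants, and AT3G49160 had 4.03, 3.27 and 3.68. The difference of stunted from variegated plants was 0.68 for ZW9 and 0.75 for AT3G49160, and 0.10 to 0.33 for the other 3. Of these, AT2G10840 was dim, with means of 2.55 in stunted, 2.45 in variegated and 2.51 in wild-type plants. AT1G19980 was dim too, with 3.03, 2.88 and 2.99. Their high correlations therefore rest on small differences at a low level.

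For SAG101 the closest were CRK (ARPC5), a subunit of the actin-nucleating ARP2/3 complex (r = 0.966), the cyclophilin gene CYP59 (0.955), AT5G18500 (0.948), AT4G33040 (0.943) and AT5G35460 (0.934). Their changes in the 3 comparisons lay between -0.16 and 0.09. The lowest SAG101 values were those of wild-type replicate 1 and stunted replicate 2, and the correlations were not recomputed without these arrays.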

How the data were processed

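The deposited table holds 1 column of log2 expression values per array, made by the authors with RMA and the affy package, per the submitters' processing notes. Versions and genome build are not given in the sources used here. RMA equalises the arrays' distributions and would hide a change common to most transcripts. Arrays have no read depth, and their number limits the precision.

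After 64 control probe sets were set aside, limma 3.58.1 (R 4.3.3) was fitted with 1 mean per group over all 9 arrays, and 3 contrasts were taken. The procedure was tested on simulated arrays. Genes were named from the platform table (13513 probe sets with 1 gene), with the brightest probe set per gene, and matched by number to a RefSeq table of assembly TAIR10.1, used for names and gene order. Of 139 listed genes 28 were named in this way and are called measured. The others may still have probe sets that the table does not name singly. Members and lists were chosen with earlier results of these data known. Named genes are the 3 members, list members that passed in any comparison or otherwise the 2 with the smallest p, all platform WRKY genes and the 5 genes most correlated with each member. ATG3, ATG101 and RCA were named after their values were seen. Alternatives covered a replicate block, groups alone, moderation, normalization, dim probe sets, covariates and omitted arrays.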

Additional observations from a re-analysis of the deposited data

Results flagged for a closer look

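For 4 of the genes named, the direct comparison of the 2 phenotypes passed, where 1.74% of all probe sets did. List genes were named here if they passed in any comparison, so the count of 4 is no result about the genes. ATG8B was higher in stunted than in variegated plants by 0.44 on the log2 scale (limma adjusted p = 0.0315), with changes of 0.15 and -0.29 against wild type, and it was the one of the 4 whose changes had opposite signs with all arrays of each phenotype on its own side of wild type. Neither change against wild type passed, and that of stunted plants was 0.07 without stunted replicate 3 and 0.05 with the actin covariate. ATG8H was higher by 0.62 (adjusted p = 0.00879), with changes of 0.71 and 0.09 against wild type. WRKY22 was higher by 0.44 (adjusted p = 0.0394), with changes of 0.63 and 0.19. PYK10 was higher by 1.74 (adjusted p = 0.0018), with changes of 1.50 and -0.24. The ATG8B call held in 5 of 8 alternatives and in 2 of 9 fits without 1 array. That of WRKY22 held in 5 of 8 and 3 of 9, that of ATG8H in 7 of 8 and 8 of 9, and that of PYK10 in all. Groups of 3 arrays are too small for a test of single outlying arrays, so none was made.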

How the results depend on the processing

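The 3 members in 3 comparisons were recomputed under 8 alternatives and 9 omissions of 1 array. SAG101 has no value without the dimmest 30% of probe sets. ATG8B in stunted against variegated plants lost its call with both groups alone (0.44, adjusted p = 0.0864), an intensity trend (0.44, adjusted p = 0.0898) and the actin covariate (0.31). Over the 9 omissions its difference was 0.36 to 0.48. The change of WRKY6 over the omissions was 0.84 to 1.28 in stunted against wild-type plants and 0.46 to 0.90 in stunted against variegated plants. SAG101 changed sign around 0 in stunted against wild-type plants without stunted replicate 2 (0.011) and without wild-type replicate 2 or 3 (0.026 each), with a range of -0.123 to 0.026, and in variegated against wild-type plants without wild-type replicate 1 (-0.081), with a range of -0.081 to 0.069. Beside these and the omissions named above for WRKY6 and ATG8B, no member changed its sign or its side of the threshold. Of 408 recomputed counts of passing list members, 365 stayed within 1.5 times, 39 were lower by at most 2 genes and 4 were higher by 1. In variegated against wild-type plants no member of any list passed as fitted, so those counts could not fall. The other counts were small, and the 365 therefore say little about stability. The labels do not say what a shared replicate number stands for. Deviations from the group means had a median correlation of 0.17 over 9 same-numbered pairs, 6 of them over 0.1, against -0.05 over 18 pairs of different number, 1 of them over 0.1. Same-numbered arrays thus tended to deviate together, with a lowest correlation of 0.0045. Of the 9 arrays, 5 correlated best with their own number in both other groups. Deviations within a group cancel out, so the 2 medians are not independent of each other. The fit without the block was kept because the labels state no pairing. The main tests therefore do not take this tendency into account. With the replicate block, WRKY6 in stunted against wild-type plants kept its change of 1.03 (adjusted p = 0.0151) and ATG8B in stunted against variegated plants its difference of 0.44 (adjusted p = 0.0223), and no member's call changed, while the number of probe sets passing was 2889, 191 and 940 in stunted against wild-type, variegated against wild-type and stunted against variegated plants, against 2197, 101 and 396 without it.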

Other observations

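The reference gene table gives the order of genes along the chromosomes, and the 2 protein-coding genes on each side of every member were looked up after the members' values had been seen. Of these 12 neighbours 6 were measured, and 4 passed in stunted against wild-type plants by limma, where 9.66% of all probe sets did. AT1G62290, next to WRKY6, fell by 0.70 (adjusted p = 0.00702), opposite to WRKY6. AT4G04630, next to ATG8B, fell by 0.80 (adjusted p = 0.0187), where ATG8B had a change of 0.15. Beside SAG101, AT5G14940 fell by 0.53 (adjusted p = 0.0365) and AT5G14910 rose by 0.29 (adjusted p = 0.0196). None of the neighbours passed in variegated against wild-type or in stunted against variegated plants, where 0.444% and 1.74% of all probe sets did. Alternatives and omitted arrays are not given for the neighbours, and 6 genes are too few for a result about these regions.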
